A study of Mus musculus with 18 samples.

Results

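The 7 NMDA receptor subunit genes of the mouse (Grin1, Grin2a, Grin2b, Grin2c, Grin2d, Grin3a and Grin3b) were taken from a table of read counts of striatal RNA by their Ensembl gene identifiers. They are 7 of the 55421 genes in the table, and all 7 had enough reads to be tested among 20914 genes. The table holds 18 libraries, each from the striatum of 1 mouse aged 12 to 14 months and labelled C57BL/6, in 4 genotypes: WT (n = 5), zQ175 (n = 5), CK2a'(+/-) (n = 3) and zQ175:CK2a'(+/-) (n = 5). zQ175 mice carry 1 copy of a full-length huntingtin gene with an expanded CAG repeat in every cell and are a model of Huntington's disease. CK2a'(+/-) mice lack 1 copy of Csnk2a2, which encodes the alpha prime catalytic subunit of protein kinase CK2, and zQ175:CK2a'(+/-) mice carry both changes. The alleles are constitutive, so neuronal and glial effects were not separated. The methods state that the mice had a C57BL/6J background after long backcrossing of the CK2a' line. They also give a female to male ratio that differed between the genotypes, with more females among WT and zQ175:CK2a'(+/-) mice and more males among zQ175 and CK2a'(+/-) mice. The labels give no sex for a library, so sex was not in the fit, and its part in the results was addressed only through the level of Xist, an RNA of female cells, as an alternative.

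NMDA receptors are glutamate-gated channels that admit calcium and open when glutamate and a co-agonist, glycine or D-serine, are both bound and the membrane is depolarised. Each receptor combines obligatory GluN1 subunits, encoded by Grin1 and carrying the co-agonist site, with GluN2 subunits (Grin2a to Grin2d), which bind glutamate and set the opening and closing kinetics, or with GluN3 subunits (Grin3a, Grin3b), which bind glycine and lower calcium permeability. In the striatum the receptors receive cortical and thalamic glutamate input onto spiny projection neurons, and they have long been studied in Huntington's disease for their role in excitotoxicity.

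In the GRCm38 gene models Grin1 (ENSMUSG00000026959) lies at chr2:25291181-25319187, Grin2a (ENSMUSG00000059003) at chr16:9567898-9995560, Grin2b (ENSMUSG00000030209) at chr6:135713233-136173511 and Grin2c (ENSMUSG00000020734) at chr11:115249169-115267243. Grin2d (ENSMUSG00000002771) lies at chr7:45831883-45878378 and Grin3a (ENSMUSG00000039579) at chr4:49661611-49845744. These 6 genes are on the minus strand, while Grin3b (ENSMUSG00000035745) is on the plus strand at chr10:79970715-79977190. Their summed exon length ran from 3296 bases for Grin3b to 24842 bases for Grin2b. Exons on the opposite strand share 1059 bases with Grin3b (from Tmem259, at a mean of 52.8 CPM, counts per 1000000 counts of the library), 1307 bases with Grin1 (from Grin1os) and 643 bases with Grin2d (from Gm45441). Whether reads were assigned by strand is not given in the sources used here, so the value of Grin3b, itself near the floor of the assay, is uncertain.

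The RefSeq promoter table (GRCm38.p6) held 4 of the 7 genes: Grin1, Grin2c, Grin2d and Grin3b. The 250 bases before the RefSeq start site are shown for Grin1 and Grin3b because these were the members with the highest and the lowest level in every genotype. CpG dinucleotides are in capitals, the strand is that of the gene, and the windows are chr2:25319188-25319437 and chr10:79970474-79970723.
Grin1: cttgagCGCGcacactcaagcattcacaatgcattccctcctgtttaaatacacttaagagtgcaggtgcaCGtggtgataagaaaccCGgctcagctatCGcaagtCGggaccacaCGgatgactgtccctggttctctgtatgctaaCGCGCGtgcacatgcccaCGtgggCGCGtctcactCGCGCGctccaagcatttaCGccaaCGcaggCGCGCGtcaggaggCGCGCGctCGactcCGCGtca
Grin3b: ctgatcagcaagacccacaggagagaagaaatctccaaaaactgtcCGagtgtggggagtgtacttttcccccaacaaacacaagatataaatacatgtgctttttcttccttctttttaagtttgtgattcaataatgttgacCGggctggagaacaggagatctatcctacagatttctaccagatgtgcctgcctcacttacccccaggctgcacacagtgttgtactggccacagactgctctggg
The Grin1 window held 27 CpG dinucleotides, more than 91.4% of the 32851 windows in the table, and the Grin3b window held 2, more than 18.8% of them. The windows of Grin2c and Grin2d held 15 and 9, and the median of all windows was 6. The GC box GGGCGG, searched on both strands, occurred 3 times in the Grin2c window and not in the other 3, while 32.7% of all windows held it. The Grin2d window lies inside the gene model used for counting, so it marks another start site. No binding or methylation was measured, and these letters are a description only.

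Counts are given as CPM after TMM scaling, a correction of library sizes for composition, and levels are compared between genes as CPM per kilobase of exon. Over the 18 libraries Grin1 stood highest at 48.5 ± 3.57 CPM per kilobase (mean ± SD, n = 18). Among the GluN2 genes the mean level was 36.2 ± 3.99 CPM per kilobase for Grin2b, 11.9 ± 2.50 for Grin2a, 7.87 ± 1.57 for Grin2c and 2.45 ± 1.33 for Grin2d. Of the GluN3 genes, Grin3a reached 1.78 ± 0.690 CPM per kilobase and Grin3b 0.153 ± 0.0883. Grin1 and Grin2b therefore ranked 512 and 769 among the 20914 genes tested, and Grin3b ranked 19971.

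**Figure D1:**
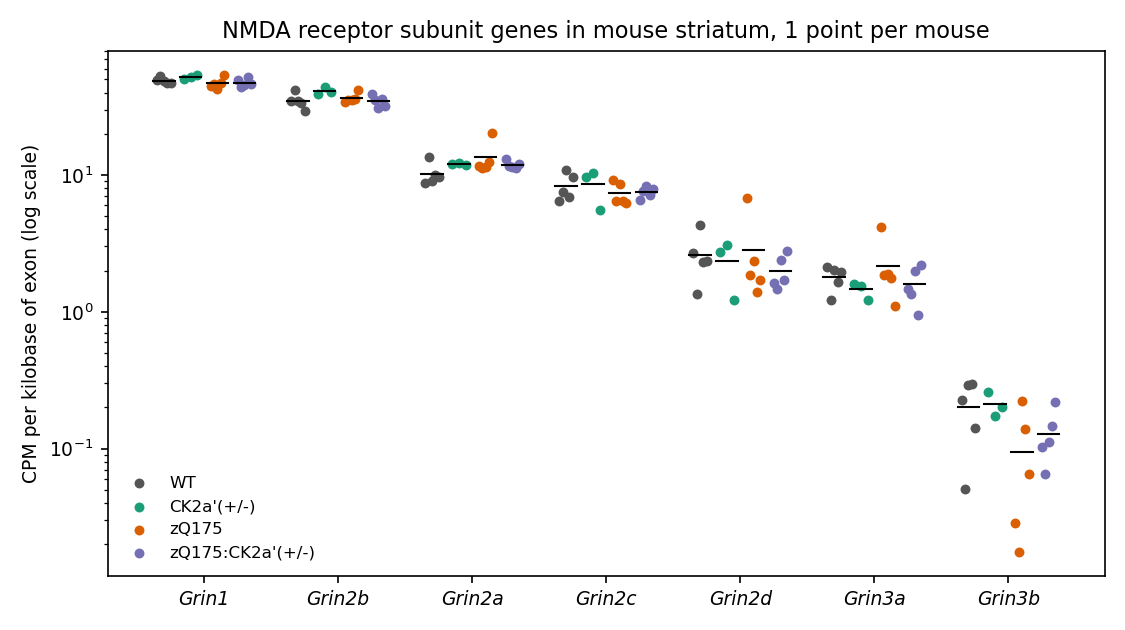
Level of each NMDA receptor subunit gene in CPM per kilobase of exon (log scale), with 1 point per mouse, colours for the 4 genotypes and black bars for the group means. Grin1 and Grin2b sit highest in all 4 genotypes and Grin3b lowest, and the points of the genotypes overlap for every gene.

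Grin1 exceeded Grin2b in 18 of 18 libraries, by 1.19 to 1.59 times, although the ranges of the 2 genes over libraries overlapped. Grin2b exceeded Grin2a in 18 of 18 libraries by 2.03 to 3.91 times, with no overlap of their ranges. Grin2a exceeded Grin2c in 16 of 18 libraries and Grin2d exceeded Grin3a in 16 of 18, so the order of these neighbours was not fixed from mouse to mouse. Grin2c exceeded Grin2d, and Grin3a exceeded Grin3b, in all 18.

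The 4 GluN2 genes were also expressed as shares of their summed CPM per kilobase, a description of mRNA that says nothing of receptor composition. Grin2b made up 62.0% ± 3.49, Grin2a 20.2% ± 2.91, Grin2c 13.5% ± 2.75 and Grin2d 4.22% ± 2.18 of this pool (SD, n = 18). The Grin2a share was 18.2% ± 2.18 in WT (n = 5), 18.8% ± 1.15 in CK2a'(+/-) (n = 3), 22.1% ± 4.13 in zQ175 (n = 5) and 21.3% ± 0.814 in zQ175:CK2a'(+/-) mice (n = 5). The zQ175 mean includes replicate 5 at 29.3%, and the other 4 zQ175 mice were at 19.0% to 22.05%. The Grin2b share lay between 60.7% and 64.3% in the 4 genotype means.

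Total counts ran from 13612381 to 22702547 per library, and no 2 libraries of a genotype agreed within sampling noise. Csnk2a2, the targeted gene, followed the labels: it lay between 14.7 and 19.9 CPM in the 8 mice with 1 allele and between 29.4 and 37.5 CPM in the 10 mice with both. Markers of striatal projection neurons were present in every library, and their summed level (10 genes) was 2910 to 6870 CPM in WT, 4861 to 6812 in CK2a'(+/-), 1591 to 3229 in zQ175 and 2661 to 3770 in zQ175:CK2a'(+/-) mice. In bulk tissue, fewer cells of a type and less RNA per cell cannot be told apart. Several libraries stood apart in markers of neighbouring regions. In zQ175 replicate 1 all 5 thalamic markers were the highest of the 18 libraries (summed 1293 CPM, against a median of 302 in the others), and in zQ175 replicate 5 the same held for 8 of 10 cortical excitatory markers (402 against 147 CPM) and 5 of 5 hippocampal markers (160.2 against 71.5 CPM). The 3 choroid plexus markers summed to 2032 and 1695 CPM in WT replicates 1 and 3, 948 CPM in CK2a'(+/-) replicate 1 and 3020 CPM in zQ175:CK2a'(+/-) replicate 2, against 4.30 to 15.4 CPM in the 5 zQ175 and the other 9 libraries.

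Does the zQ175 allele change the subunit genes? In zQ175 compared to WT mice, 0 of the 7 genes passed the test (edgeR quasi-likelihood test, FDR under 0.1), where 1.10% of all genes tested passed. Grin2a alone, 1 of 7, had an unadjusted p under 0.05, which 13.9% of all genes had, and it alone passed with DESeq2 (adjusted p = 0.0901), which called 5.26% of the genes it tested. For 0 of 7 genes did the zQ175 and WT values separate without overlap, which 2.44% of all genes did. The median log2 fold change of the 7 genes was 0.07, beside 0.00 for all genes tested.

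Grin2a, which encodes GluN2A, the subunit of fast-closing receptors in mature forebrain, was measured at 158, 241, 161, 179 and 172 CPM in the WT mice. In the zQ175 mice it was 210.2, 202, 204, 223 and 366 CPM. The genotype means were 182 ± 33.9 in WT, 241 ± 70.5 in zQ175, 216 ± 3.90 in CK2a'(+/-) and 214 ± 13.7 CPM in zQ175:CK2a'(+/-) mice (SD). All 5 zQ175 values lay above 4 of the 5 WT values, and WT replicate 2 lay above 4 of the 5 zQ175 values. The log2 fold change was 0.41 ± 0.14 (SE; 95% confidence interval 0.12 to 0.69) with an adjusted p of 0.187 by edgeR. Without zQ175 replicate 5, the library with high cortical and hippocampal markers, it was 0.20 (adjusted p = 0.409), and without WT replicate 2 it was 0.51 and passed (adjusted p = 0.0603). Without the 4 libraries with high choroid plexus markers, which include the 2 WT mice with the lowest Grin2a values, it was 0.29 (adjusted p = 0.697). WT replicate 2 had the highest value of the 18 libraries for 5 of 10 striatal projection neuron markers (summed 6870 CPM, against a median of 3229 in the others). The part of the marker levels in the result was not tested.

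Grin2b, encoding GluN2B, the slowly closing subunit that binds CaMKII, was measured at 856, 1041, 858, 831 and 727 CPM in WT mice. It was 845, 871, 870.5, 897 and 1031 CPM in zQ175 mice. The zQ175 range lay within the WT range, and the log2 fold change was 0.07 ± 0.09 (SE; 95% interval -0.12 to 0.25; adjusted p = 0.798 by edgeR). Grin1 lay between 453 and 517 CPM in WT and between 412 and 525.5 CPM in zQ175 mice, with a log2 fold change of -0.06 (95% interval -0.21 to 0.09). For these 2 abundant genes the 95% limits of the fold change were 0.920 and 1.19 (Grin2b) and 0.865 and 1.07 (Grin1). The intervals of the scarce members were far wider.

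**Figure D2:**
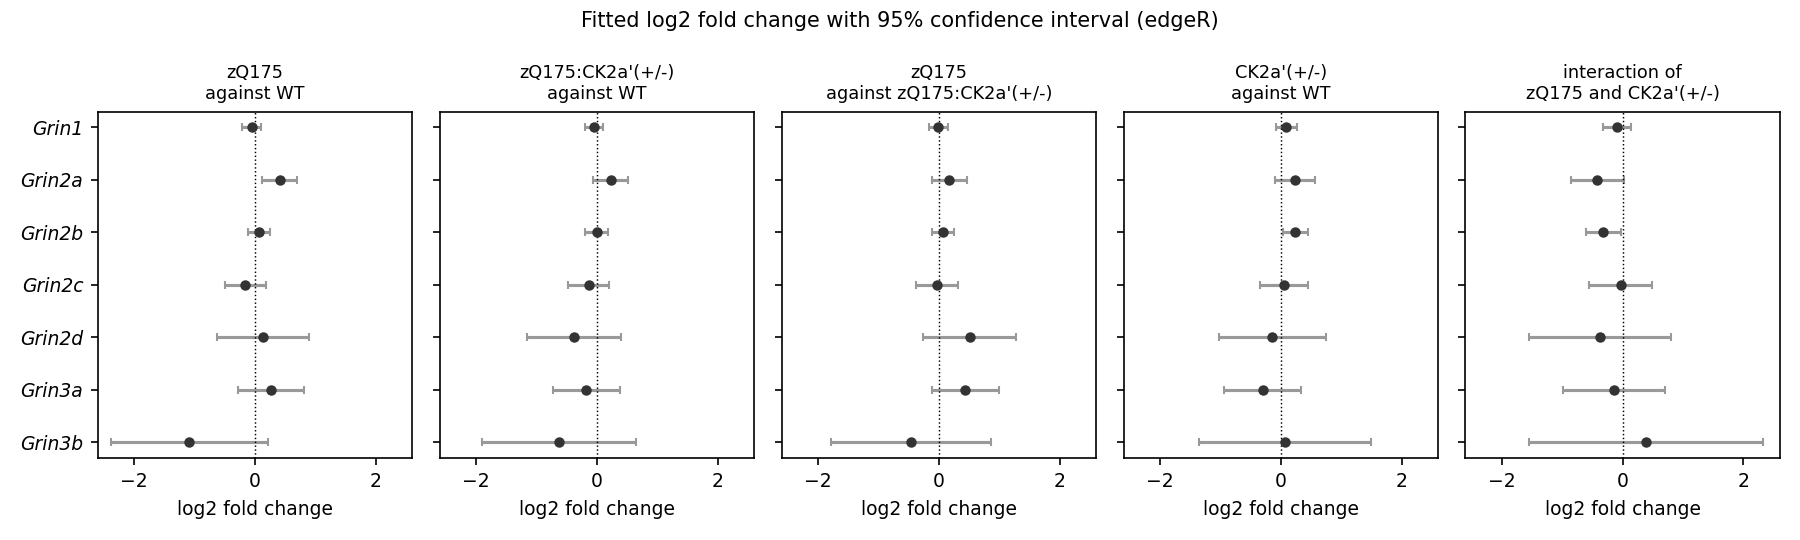
Fitted log2 fold change of each subunit gene with its 95% confidence interval in the 4 comparisons of genotypes and for the interaction of both alleles. Only Grin2a in zQ175 against WT, Grin2b in CK2a'(+/-) against WT and Grin2b in the interaction have intervals that leave out 0, and none of the 3 passed the test over all genes.

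Grin2c, whose GluN2C subunit is known from cerebellar granule cells, thalamus and astrocytes, ranged from 32.5 to 55.1 CPM in WT and from 31.2 to 46.5 CPM in zQ175 mice (log2 fold change -0.16 ± 0.16, SE). It ran from -0.26 without zQ175 replicate 1 to -0.04 without WT replicate 3. Grin2d, whose GluN2D subunit is known from interneurons and the diencephalon, was measured at 18.04, 8.99, 28.5, 15.4 and 15.7 CPM in WT mice and at 45.5, 12.5, 15.7, 9.30 and 11.3 CPM in zQ175 mice. The highest Grin2d value was that of zQ175 replicate 1, the library with high thalamic markers. The 7 interneuron markers summed to 291 to 345 CPM in WT and 173 to 282 CPM in zQ175 mice, without overlap, and were lowest in zQ175 replicate 1. The part of these markers was not tested. The log2 fold change of Grin2d, 0.13 ± 0.37 (SE), became -0.50 without zQ175 replicate 1, and it was 0.50 without the 4 libraries with high choroid plexus markers.

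Grin3a, encoding GluN3A, a subunit of juvenile synapses, showed the same library: it was measured at 25.9, 15.0, 24.9, 20.4 and 24.0 CPM in WT mice and at 50.7, 22.8, 23.4, 21.6 and 13.6 CPM in zQ175 mice. Its log2 fold change was 0.26 ± 0.26 (SE) with, and -0.12 without, zQ175 replicate 1. Grin3b, whose GluN3B subunit is known from motor neurons, was measured at 0.747, 0.168, 0.953, 0.977 and 0.463 CPM in WT mice and at 0.0937, 0.0579, 0.738, 0.462 and 0.215 CPM in zQ175 mice. These values came from 1 to 22 reads per library over the 18 libraries, and the log2 fold change of -1.09 had a 95% interval of -2.39 to 0.21 and ran from -1.69 to -0.84 when 1 library was left out.

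The ratio of Grin2a to Grin2b within a library, each per kilobase of exon, does not depend on scaling between libraries. It was 0.256, 0.320, 0.260, 0.298 and 0.328 in WT mice and 0.345, 0.321, 0.324, 0.345 and 0.492 in zQ175 mice. In zQ175:CK2a'(+/-) mice it was 0.338, 0.327, 0.372, 0.316 and 0.379, and in CK2a'(+/-) mice 0.310, 0.280 and 0.290. The mice with the zQ175 allele thus had higher mean ratios, but in each comparison the ranges overlapped the WT range. The difference in mean log2 ratio from WT was 0.31 ± 0.14 (SE) in zQ175 mice (exact two-sided permutation test, p = 0.0317) and 0.25 ± 0.09 in zQ175:CK2a'(+/-) mice (exact permutation p = 0.0397). Adjusted over the 4 comparisons made, both p-values were 0.0794 in the exact permutation test and 0.111 in an exact rank-sum test. Neither passed 0.05, the threshold used for the ratio, although 0.0794 lies under the FDR of 0.1 used for genes. The 2 comparisons share the WT mice and are not independent.

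**Figure D3:**
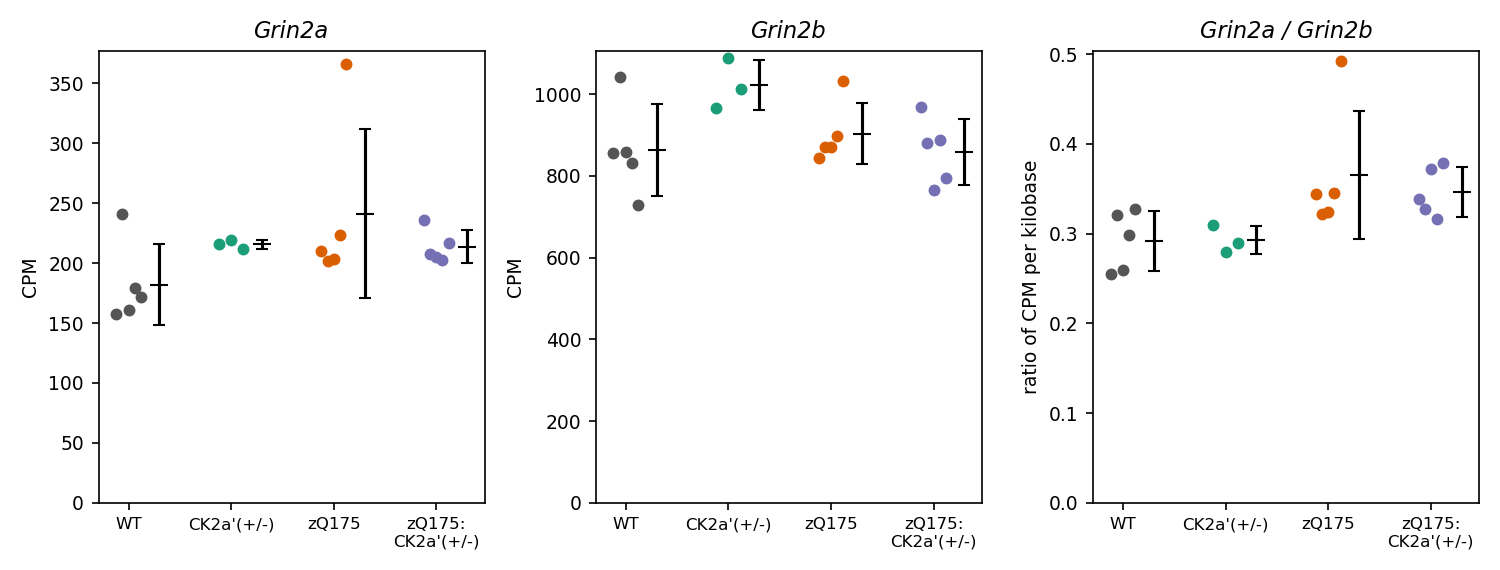
Grin2a CPM, Grin2b CPM and the ratio of their CPM per kilobase in the 4 genotypes, with 1 point per mouse and the mean ± SD beside each group. zQ175 replicate 5 lies highest for Grin2a (366 CPM) and for the ratio (0.492), and the other zQ175 and zQ175:CK2a'(+/-) ratios lie between 0.316 and 0.379.

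Without zQ175 replicate 5 the log2 difference in the ratio between zQ175 and WT mice was 0.20 (exact permutation p = 0.0635), and without zQ175 replicates 1 and 5 it was 0.18 (exact permutation p = 0.143). Without the 4 libraries with high choroid plexus markers it was 0.19 (exact permutation p = 0.143), and that between zQ175:CK2a'(+/-) and WT mice was 0.15 (exact permutation p = 0.171). With so few zQ175:CK2a'(+/-) and WT mice left, this last test could not give a p under 0.05 whatever the values, so only its effect size is informative. The ratio did not separate zQ175 from zQ175:CK2a'(+/-) mice (log2 difference 0.06, exact permutation p = 0.762) or CK2a'(+/-) from WT mice (0.01, exact permutation p = 0.929, where the smallest p possible with 3 against 5 mice was 0.0357).

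Does loss of 1 CK2a' allele change the subunit genes in zQ175 mice? In zQ175 compared to zQ175:CK2a'(+/-) mice 0 of 7 genes passed with edgeR (0.0143% of all genes did), none had an unadjusted p under 0.05 (6.27% of all genes did), and 0 passed with DESeq2 (0.145% did). Values of the 2 genotypes overlapped for 7 of 7 genes, while 1.14% of all genes did not overlap. The difference was 0.17 ± 0.14 (log2, SE) for Grin2a, 0.07 ± 0.09 for Grin2b and -0.01 ± 0.07 for Grin1, with 95% intervals of -0.12 to 0.46, -0.11 to 0.26 and -0.16 to 0.15. Grin2a in the zQ175:CK2a'(+/-) mice was 236, 208, 206, 202 and 217 CPM, and without zQ175 replicate 5 the log2 difference was -0.03. Grin2b in these mice was 968, 881, 765, 888 and 794 CPM. The difference was 0.51 for Grin2d and 0.44 for Grin3a (log2, adjusted p = 0.881 and 0.849 by edgeR), and without zQ175 replicate 1 the values were -0.13 and 0.05.

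In zQ175:CK2a'(+/-) compared to WT mice, again 0 of 7 genes passed with edgeR (0.0143% of all genes did) or DESeq2 (0.725% did), and 0 of 7 had an unadjusted p under 0.05 (9.13% did). The Grin2a difference was 0.23 ± 0.14 (log2, SE; 95% interval -0.06 to 0.52) and 0.13 without the 4 libraries with high choroid plexus markers, that of Grin2b -0.01 ± 0.09 and that of Grin1 -0.05 ± 0.07. Values overlapped for all 7 genes, where 1.84% of all genes did not overlap.

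In CK2a'(+/-) compared to WT mice 0 of 7 genes passed with edgeR (0.0143% of all genes did) or DESeq2 (0.0293% did), and 1 of 7, Grin2b, had an unadjusted p under 0.05, which 4.48% of all genes had. Grin2b was 965, 1088 and 1012 CPM in the 3 CK2a'(+/-) mice, above 4 of the 5 WT mice, with a log2 fold change of 0.24 ± 0.10 (SE; adjusted p = 0.999 by edgeR). Grin2a was 216, 219.5 and 212 CPM in these mice (log2 fold change 0.24 ± 0.16), a narrow spread that 1 WT mouse exceeded. The Grin2a value was 0.37 without that mouse, WT replicate 2, and 0.13 without the 4 libraries with high choroid plexus markers. Grin1 was 487, 507 and 525 CPM (0.09 ± 0.08). No gene of the family separated the groups without overlap, against 3.20% of all genes.

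The interaction asks whether loss of the CK2a' allele changed a gene differently in zQ175 and in WT mice. It passed for 0 of 7 genes with edgeR (0.00478% of all genes passed) and for 0 with DESeq2 (0.103% did), and 1 of 7 had an unadjusted p under 0.05 (5.39% of all genes did). The interaction was -0.32 ± 0.14 (log2, SE; adjusted p = 0.916 by edgeR) for Grin2b and -0.42 ± 0.21 (adjusted p = 0.916 by edgeR) for Grin2a. Without zQ175 replicate 5 the Grin2a interaction was -0.21 (adjusted p = 0.955 by edgeR). All comparisons with WT and the interaction share the same WT libraries.

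Some of the subunit genes also varied between mice along with the marker levels of the libraries. Each of the 7 genes was set against the summed levels of the striatal projection neuron, cortical and thalamic markers over the 18 libraries (21 relations on log2 scales, chosen after the libraries that stand apart had been seen). Of these, 4 had a Pearson p under 0.05 after Benjamini-Hochberg adjustment. Grin2d went with the thalamic markers, with a Pearson r of 0.84 (permutation p = 4e-05, adjusted 0.00084) and a Spearman rho of 0.82 (permutation p = 7e-05, adjusted 0.00116). So did Grin3a, with an r of 0.79 (permutation p = 8e-05, adjusted 0.00084) and a rho of 0.70 (permutation p = 0.00147, adjusted 0.0103). Grin2c did likewise, with an r of 0.76 (permutation p = 0.00038, adjusted 0.00266) and a rho of 0.80 (permutation p = 0.00011, adjusted 0.00116). Without the 2 libraries farthest from the median marker level the r values of Grin2d, Grin3a and Grin2c were 0.76, 0.63 and 0.76, and within genotypes (after subtracting each genotype's mean) they were 0.85, 0.83 and 0.82. Grin1 went with the striatal projection neuron markers, with an r of 0.66 (permutation p = 0.00296, adjusted 0.0155) and a rho of 0.62 (permutation p = 0.00745, adjusted 0.0391). Its r was 0.49 without the 2 farthest libraries and 0.50 within genotypes. Of the relations that did not pass, 4 had a within-genotype r beyond 0.6 in size, given here as a description: against the striatal projection neuron markers Grin2b (0.63), Grin2d (-0.70) and Grin3a (-0.64), and against the thalamic markers Grin1 (-0.67). Their r over all 18 libraries was 0.56, -0.46, -0.58 and -0.50.

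**Figure D4:**
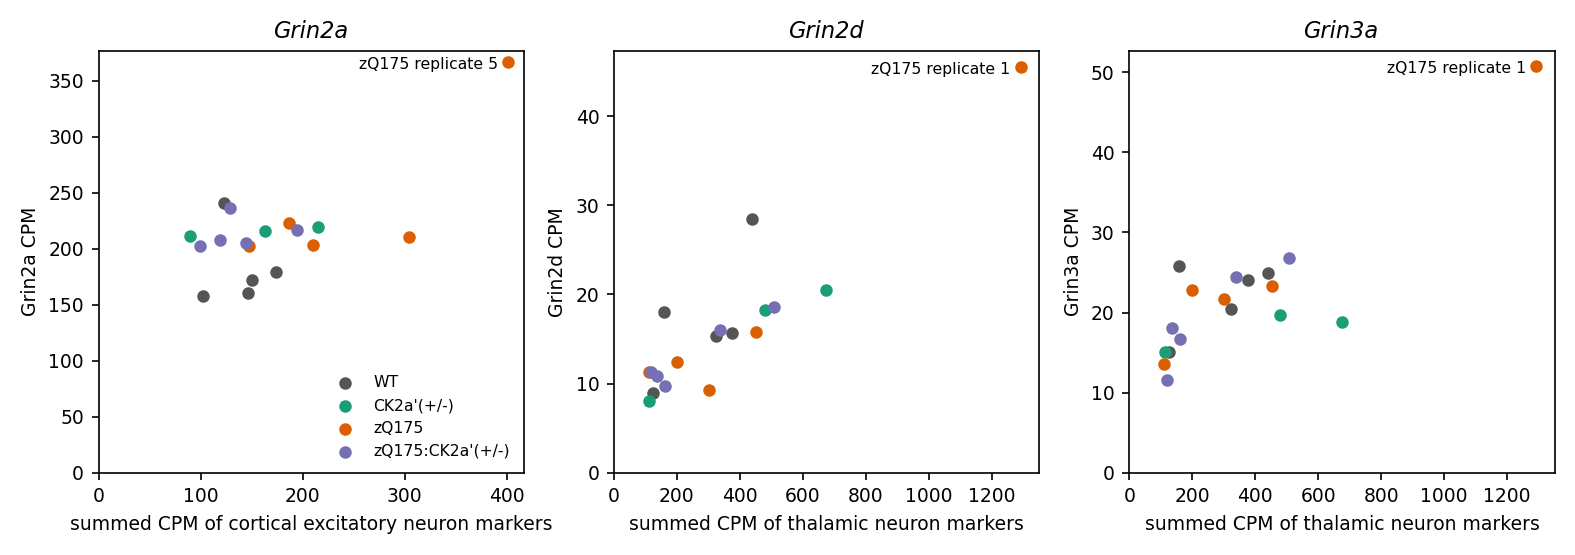
CPM of Grin2a against the summed CPM of 10 cortical excitatory markers, and CPM of Grin2d and Grin3a against the summed CPM of 5 thalamic markers, with 1 point per library coloured by genotype. zQ175 replicate 5 (Grin2a 366 CPM) and zQ175 replicate 1 (Grin2d 45.5 and Grin3a 50.7 CPM) lie at the upper right, and the rise of Grin2d with the thalamic markers is also seen among the other libraries.

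The 5 thalamic markers (Slc17a6, Tcf7l2, Prkcd, Lef1 and Rora) were not at 0 in any group, and their sum ran from 125 to 440 CPM in WT, from 111 to 1293 in zQ175, from 112 to 675 in CK2a'(+/-) and from 118 to 509 CPM in zQ175:CK2a'(+/-) mice. In WT replicate 3, with the highest sum of its group, Grin2d was 28.5 CPM, and in CK2a'(+/-) replicate 3, with the lowest, it was 8.08 CPM. Grin2a against the cortical markers had an r of 0.54 (permutation p = 0.0241, adjusted 0.0722) and a rho of 0.30 (permutation p = 0.226, adjusted 0.395), and its r was 0.14 without the 2 farthest libraries, so this relation rests on those libraries.

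Among the subunit genes themselves, log2 CPM of Grin1 and Grin2b went together over the 18 libraries (r = 0.72), as did Grin2d with Grin3a (0.80) and Grin2c with Grin2d (0.71). Grin3a went the opposite way to Grin1 (-0.62) and to Grin2b (-0.55). Without the zQ175 libraries that stand apart these r values were, in the same order, 0.67, 0.64, 0.75, -0.57 and -0.58. These are descriptions: the genes of a library share its depth, its scaling and its dissection. By the same measure, the 3 genes most like Grin1 among 10205 candidates were Snn, Parp6 and Rbfox1, a neuronal splicing factor (r = 0.89 for each). For Grin2a they were Epha4, an ephrin receptor, Pcdh1 and Ncor1 (0.88 each), and without the zQ175 libraries that stand apart the values were 0.70 to 0.75. For Grin2b they were Slc1a2, the astrocyte glutamate transporter (0.85), Nckap1 (0.84) and Sorbs2 (0.83). For Grin2c they were Vamp1, a synaptic vesicle protein, Hr and Tspan9 (0.82 to 0.84). For Grin2d they were Gnas, the stimulatory G protein subunit, Arhgef40 and Tox2 (0.91 to 0.92), for Grin3a Inpp4b, Nap1l5 and Zdhhc22 (0.89 to 0.90), and for Grin3b Josd2, Dnajb2 and Serpinb1a (0.76 to 0.83). Without the zQ175 libraries that stand apart the values were 0.86 to 0.91 for Grin2d, 0.76 to 0.80 for Grin3a and 0.69 to 0.81 for Grin3b. Those of Grin3b rest on 1 to 22 reads per library.

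The partners of the receptor were followed through 6 lists of 65 genes, of which 58 were tested. In zQ175 compared to WT mice 3 of 58 passed with edgeR, 1 higher (0.387% of all genes were called higher) and 2 lower (0.712% were called lower), 18 had an unadjusted p under 0.05 (13.9% of all genes did), and 4 passed with DESeq2 (5.26% of all genes did). The median log2 fold change of the 58 genes was -0.06, beside 0.00 for all genes tested.

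In the co-agonist supply list (9 genes, 8 tested) Phgdh, the first enzyme of serine synthesis, was 26.3, 27.0, 22.4, 24.4 and 27.1 CPM in WT and 14.0, 17.6, 18.1, 18.5 and 15.4 CPM in zQ175 mice. The groups did not overlap, and Phgdh fell by 0.61 ± 0.12 (log2, SE; adjusted p = 0.0469 by edgeR). It was 24.5, 23.9, 22.2, 17.7 and 17.8 CPM in zQ175:CK2a'(+/-) mice, and 2 of these 5 values lay within the zQ175 range. The difference between zQ175 and zQ175:CK2a'(+/-) mice, -0.35 ± 0.12, did not pass (adjusted p = 0.633 by edgeR), nor did the interaction (adjusted p = 0.867 by edgeR). The summed level of 6 astrocyte markers, a cell type known to make serine, was 2784 to 4081 CPM in WT and 2673 to 3312 CPM in zQ175 mice. The oligodendrocyte markers (4022 to 5648 CPM in WT, 2622 to 3954 CPM in zQ175) and the interneuron markers (291 to 345 and 173 to 282 CPM) did not overlap. The part of these markers in the result was not tested. Srr, the enzyme that makes D-serine, had a log2 fold change of -0.07 ± 0.10 between zQ175 and WT mice.

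The kynurenine pathway makes quinolinic acid, an NMDA receptor agonist, and kynurenic acid, an antagonist, and 3 of its 9 listed genes were tested. Ido1, which opens the pathway, was 14.5, 11.2, 8.24, 9.59 and 8.11 CPM in WT and 3.51, 6.55, 6.76, 5.21 and 5.91 CPM in zQ175 mice, without overlap, and fell by 0.89 ± 0.20 (log2, SE; adjusted p = 0.0613 by edgeR). In the same mice the striatal projection neuron markers summed to 2910 to 6870 CPM (WT) and 1591 to 3229 CPM (zQ175), with overlap. The 4 oligodendrocyte markers summed to 4022 to 5648 CPM (WT) and 2622 to 3954 CPM (zQ175), without overlap. The part of these markers in the fall of Ido1 was not tested. In zQ175:CK2a'(+/-) mice it was 4.84 to 7.68 CPM (log2 fold change against WT -0.74, adjusted p = 0.280 by edgeR and 0.0843 by DESeq2).

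Among the 10 genes of calcium signalling downstream, Creb1, a transcription factor driven by synaptic calcium, was 50.2, 49.1, 49.2, 56.1 and 47.4 CPM in WT and 60.9, 68.1, 62.9, 59.2 and 59.7 CPM in zQ175 mice. It rose by 0.30 ± 0.07 (log2, SE; adjusted p = 0.0613 by edgeR) with no overlap. In zQ175:CK2a'(+/-) mice it was 57.3 to 64.9 CPM, also above the 5 WT values, with the same log2 fold change of 0.30 (adjusted p = 0.204 by edgeR and 0.0281 by DESeq2). The part of the marker sums given above in the rise of Creb1 was not tested. All 3 calls of the lists were lost (0 passed) without WT replicate 1, without WT replicate 3 or without zQ175 replicate 5, and 1 (Phgdh) was left without zQ175 replicate 1. Creb1 alone was lost without WT replicate 5, zQ175 replicate 2 or zQ175 replicate 3. Over the fits that left out 1 library each, the log2 fold change ran from -0.65 to -0.55 for Phgdh, from -0.98 to -0.75 for Ido1 and from 0.25 to 0.34 for Creb1. Without the 4 libraries with high choroid plexus markers, which include WT replicates 1 and 3, the log2 fold changes were -0.65, -0.79 and 0.29, about as large as with them, and with 3 WT mice left 0 passed.

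No gene of the other 3 lists passed with edgeR in zQ175 compared to WT mice, and their counts below stand beside 13.9% of all genes with an unadjusted p under 0.05 and 5.26% called by DESeq2. The 12 scaffolds and anchors had 4 genes with an unadjusted p under 0.05 and 1 call by DESeq2, Shank2, a postsynaptic scaffold, at 136 to 163 CPM in WT and 165 to 185 CPM in zQ175 mice (log2 fold change 0.28 ± 0.08, adjusted p = 0.110 by edgeR and 0.0327 by DESeq2). Dlg4, encoding PSD-95, had a log2 fold change of -0.16 ± 0.09. The 14 kinases and phosphatases also had 4 genes with an unadjusted p under 0.05, led by Ptpn5, the striatum-enriched phosphatase STEP (-0.39 ± 0.14, adjusted p = 0.207 by edgeR), and 0 calls by DESeq2. The 11 transport and membrane partners had 4 as well, led by Ephb2, an ephrin receptor that binds NMDA receptors (0.72 ± 0.28, adjusted p = 0.252 by edgeR), and 0 by DESeq2.

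In the other comparisons 0 of the 58 genes passed with edgeR. An unadjusted p under 0.05 was reached by 8 genes in zQ175:CK2a'(+/-) against WT (9.13% of all genes did), of which DESeq2 called 2, Creb1 and Ido1 (0.725% of all genes). It was reached by 4 in zQ175 against zQ175:CK2a'(+/-) (6.27% of all genes), by 0 in CK2a'(+/-) against WT (4.48%) and by 4 in the interaction (5.39%), with 0 called by DESeq2 in these 3.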

How the data were processed

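Striatal RNA was made into stranded total RNA libraries and sequenced in pairs. The deposited values are raw counts per gene: the authors trimmed reads with Trimmomatic, checked them with FastQC, aligned them to GRCm38 with HISAT2 2.1.0, removed duplicated mappings and poorly mapped reads and counted with Subread 1.6.2. The annotation release and the strand setting of the counting are not given in the sources used here, nor whether duplicated mappings were copies of a read pair or reads with several positions. All 18 libraries entered 1 edgeR 4.0.16 quasi-likelihood fit (R 4.3.3) with TMM scaling and filterByExpr, and p-values were adjusted over 20914 genes (called at FDR 0.1). The code was tried on simulated counts with the same spread for every gene and no outlying library, a simpler setting than these data. DESeq2 1.42.0, other filters, a replicate block, an Xist covariate and leaving out libraries were alternatives. Ratios were compared by exact permutation over mice, and marker relations with 100000 permutations. The subunit genes and lists were chosen with earlier results of these data known. All 7 subunit genes, Csnk2a2, called list genes (or the lowest p of a list with none) and the 3 genes most correlated with each subunit gene (mean log2 CPM of at least 3, prior count 2) were to be named. Dlg4 and Srr were named after their values were seen.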

Additional observations from a re-analysis of the deposited data

Results flagged for a closer look

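In groups of 5 mice, a library was marked when its gap to the nearest other value exceeded 0.710 of the group's range (Dixon's test), which chance does in about 1 of 20 groups. This happened in 6 of 24 groups checked. The groups hold the same mice measured for several genes, and the ratio is made of 2 of them, so the flags are not independent. The count of flags can therefore not be set against that rate. Grin2a was 241 CPM in WT replicate 2, far above the other WT mice, in a library with the highest summed striatal projection neuron (6870 CPM) and astrocyte (4081 CPM) markers, and 366 CPM in zQ175 replicate 5. The latter library was also highest of its group for Grin2b (1031 CPM) and for the log2 ratio of Grin2a to Grin2b (-1.02), and it held the highest cortical and hippocampal markers. In zQ175 replicate 1, with the highest thalamic markers, Grin2d was 45.5 CPM and Grin3a 50.7 CPM, each the highest of all 18 libraries. The part of these markers in the values was not tested.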

How the results depend on the processing

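The count of subunit genes called in zQ175 against WT rose from 0 to 1 (Grin2a) with DESeq2, with no low-count filter and without WT replicate 2 (0 to 1 over the fits that left out 1 library each), and it was 0 in the other alternatives and in the other 4 comparisons. The count of list genes called in zQ175 against WT, 3 in the report, was 1 at FDR 0.05, 0 with only the 2 groups compared, 1 with the replicate block, 0 without zQ175 replicates 1 and 5 together and 0 without the 4 libraries with high choroid plexus markers (0 to 4 over single libraries left out). Their log2 fold changes kept their direction throughout, from -0.65 to -0.49 for Phgdh, from -0.98 to -0.74 for Ido1 and from 0.25 to 0.34 for Creb1, and Creb1 was also lost with no low-count filter (adjusted p = 0.124 by edgeR). The alternatives of the lists, and leaving out these 2 sets of libraries, were chosen after seeing the data. The adjusted p of Grin2a in zQ175 against WT ran from 0.0603 to 0.697 over its alternatives.

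Same-numbered mice of different genotypes share only a number: of 24 such pairs 2 had deviations correlated above 0.1 (-0.14 to 0.12), and 2 libraries correlated best with their own number. With the replicate block the log2 fold change of Grin2d in zQ175 against WT was -0.00319 and the Grin2c interaction 0.00573, both of the opposite sign to the report.

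Other sign changes were among values that did not pass the test, and their cause was not tested. With the Xist level as a covariate, Grin2d in zQ175 against WT was -0.18, Grin2c and Grin3b in CK2a'(+/-) against WT were -0.0272 and -0.0144, and the interactions of Grin2c, Grin2d and Grin3a were 0.10, 0.42 and 0.18. Without zQ175 replicates 1 and 5 together, Grin2d was -0.47 in zQ175 against WT, Grin2a and Grin2d were -0.0298 and -0.0930 in zQ175 against zQ175:CK2a'(+/-), the log2 Grin2a to Grin2b ratio in the same comparison was -0.0666, and the interactions of Grin2c, Grin2d, Grin3a and Grin3b were 0.0145, 0.23, 0.0908 and -0.0437. Without the 4 libraries with high choroid plexus markers, which left 2 CK2a'(+/-) mice, Grin2d and Grin3a were 0.0849 and 0.0283 in zQ175:CK2a'(+/-) against WT, Grin2d was 0.11 and the log2 ratio -0.15 in CK2a'(+/-) against WT, and the interactions of Grin2c and Csnk2a2 were 0.0166 and 0.00922.

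Leaving out 1 library at a time, the log2 fold change in zQ175 against WT ran from -0.50 to 0.38 for Grin2d, from -0.12 to 0.43 for Grin3a, from -0.26 to -0.0406 for Grin2c and from -1.69 to -0.84 for Grin3b. It ran from 0.0102 to 0.129 for Grin2b and from -0.115 to -0.0355 for Grin1. In zQ175:CK2a'(+/-) against WT it ran from -0.0616 to 0.0565 for Grin2b. In zQ175 against zQ175:CK2a'(+/-) it ran from -0.0648 to 0.0303 for Grin1, from -0.0316 to 0.23 for Grin2a, from -0.12 to 0.0275 for Grin2c and from -0.13 to 0.67 for Grin2d. In CK2a'(+/-) against WT it ran from -0.11 to 0.28 for Grin2c, from -0.38 to 0.17 for Grin2d and from -0.16 to 0.27 for Grin3b. The interaction ran from -0.54 to -0.21 for Grin2a, from -0.26 to 0.13 for Grin2c, from -0.68 to 0.27 for Grin2d and from -0.30 to 0.24 for Grin3a. The log2 difference of the Grin2a to Grin2b ratio ran from -0.0508 to 0.10 in zQ175 against zQ175:CK2a'(+/-) and from -0.0362 to 0.0534 in CK2a'(+/-) against WT. At the depth of these libraries Grin3b, with 1 to 22 reads, could show only large differences.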
